A study of Homo sapiens with 6 samples.

Results

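The 10 genes belong to the cellular response to low oxygen and were followed in cultured PC9/GR lung cancer cells of human origin after knockdown of the long non-coding RNA MYLK-AS1. They are HIF1A, the oxygen sensors EGLN1 and EGLN3, and 7 response genes outside glycolysis, VEGFA, ADM, CA9, CA12, NDRG1, BNIP3 and BNIP3L. They were picked by symbol from a count table of 54261 gene symbols, where all 10 were found and all 10 passed the filter on low counts, among 15391 tested genes. The libraries were 3 of cells that received a small interfering RNA against MYLK-AS1 (si-MYLK-AS1) and 3 of cells that received a control small interfering RNA (si-NC). All 6 came from the same line, and the labels name no other allele or agent. PC9 is known as a lung adenocarcinoma line with a mutated EGFR, and the labels do not spell out the suffix GR. No label states that repeats were grown as separate cultures, so the p-values cover only how far these libraries differ, which may be technical. The oxygen level, the siRNA sequence, its dose and the time of harvest are given in none of the sources used here.

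Cells sense oxygen through the EGLN enzymes, which use it to hydroxylate the HIF alpha subunits. The hydroxylated subunit is bound by the VHL ubiquitin ligase and degraded. When oxygen or the cofactors iron and oxoglutarate are short, the alpha subunit escapes, pairs with ARNT and binds short DNA words in the promoters and enhancers of its targets. HIF1A is therefore controlled mostly as a protein, while the messages of its targets, EGLN1 and EGLN3 among them, serve as a readout.

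Read totals ran from 7551303 to 11055408 in si-MYLK-AS1 libraries and from 8867818 to 10978513 in si-NC libraries, so that 3 reads correspond to 0.274 to 0.410 CPM (reads scaled to a common library size with TMM factors). MYLK-AS1 had 0, 5 and 4 reads in si-MYLK-AS1 replicates 1 to 3, against 20, 16 and 19 reads in si-NC replicates 1 to 3, and its log2 fold change was -2.43 (SE 0.60, adjusted p = 0.00326). Without si-MYLK-AS1 replicate 1, the library with no read, it was -1.74 (adjusted p = 0.0159). Unless another fit is named beside it (DESeq2, a library left out, another alternative, the 3 ratios), an adjusted p is from edgeR's quasi-likelihood test on all 6 libraries with Benjamini-Hochberg adjustment over the 15391 genes. A gene passed at an adjusted p below 0.05. Keratin markers of epithelium were abundant, KRT8 at 2456 to 4677 CPM over the 6 libraries. The epithelial surface marker EPCAM was low, at 0.524 to 0.639 CPM in si-MYLK-AS1 libraries, against 1.28 to 1.67 CPM in si-NC libraries. Among lung markers NKX2-1 stayed at or below 0.913 CPM and SFTPB had no read, and EGFR stood at 1.56 to 3.98 CPM, all low for the lung adenocarcinoma line that the labels name. The 9 epithelial and lung markers summed to 7622 to 8227 CPM in si-MYLK-AS1 libraries, against 11846 to 13869 CPM in si-NC libraries, and the part of this difference in the results was not tested. KRT19 of the same list ran the other way, with 102 to 113 CPM in si-MYLK-AS1 libraries, against 78.2 to 95.5 CPM in si-NC libraries. The summed leukocyte list was 260 to 301 CPM in si-MYLK-AS1 libraries, against 169 to 242 CPM in si-NC libraries. Nearly all of it was CD68, a lysosomal protein of macrophages, while the defining leukocyte markers PTPRC and CD3E had no read. Such a 0 says only that the gene is listed at 0, as was HK1, a hexokinase that most cells are known to use. In bulk RNA, fewer cells of a kind and less RNA per cell cannot be told apart.

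To show the DNA that HIF is known to read, the 250 bases before each RefSeq gene start (GRCh38.p14) were searched for the HIF core words ACGTG and GCGTG on both strands, where they read CACGT and CACGC on the other strand. A CACGTG counts as a match on each strand. RefSeq windows are described here for 7 of the 10 genes, HIF1A, EGLN1, EGLN3, ADM, CA9, CA12 and BNIP3. Whether the remaining genes have such a window is not reported. The stretches around matches follow, 5′ to 3′ on the gene's strand, with the matched words in capitals, first for the genes whose reads were higher in si-MYLK-AS1 libraries.
EGLN1, chr1:231422288-231422317, minus strand: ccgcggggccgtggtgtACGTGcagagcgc
CA9, chr9:35673898-35673927, plus strand: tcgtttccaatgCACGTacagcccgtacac
BNIP3, chr10:131982015-131982074, minus strand: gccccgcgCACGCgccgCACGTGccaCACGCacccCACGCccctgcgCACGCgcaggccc
HIF1A, chr14:61695297-61695326, plus strand: tggctgagagcgGCGTGggctggggtgggg
ADM, chr11:10304960-10304989, plus strand: gagcaggagcgcGCGTGgctgaggaaagaa
CA12, chr15:63382063-63382092, minus strand: gcggatctcaccCACGCctgccagcagctc

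The match in EGLN1 began 13 bases before the RefSeq start, and that in CA9, whose promoter is known for a HIF site beside the start, 18 bases before it. BNIP3 held 6 matches, 2 of ACGTG in one CACGTG and 4 of GCGTG, between 143 and 104 bases before its start. HIF1A, ADM and CA12 each held 1 GCGTG match, 204, 101 and 234 bases before the start. The EGLN3 window and a second RefSeq start of HIF1A had no match, which says only that these letters are not in those 250 bases. Either word is common, present in 43.2% of 35116 windows of all genes and in 55.5% of the 13906 windows of tested genes, so a match is a description and no more. ACGTG alone was in 22.5% of the windows of tested genes. In GENCODE 29 (GRCh38) the genes span chr14:61695513-61748259 (HIF1A, ENSG00000100644.16), chr1:231363751-231425044 (EGLN1, ENSG00000135766.8), chr14:33924231-34462774 (EGLN3, ENSG00000129521.13), chr6:43770184-43786487 (VEGFA, ENSG00000112715.21), chr11:10304680-10307397 (ADM, ENSG00000148926.9), chr9:35673856-35681159 (CA9, ENSG00000107159.12), chr15:63321378-63382161 (CA12, ENSG00000074410.13) and chr10:131966455-131982013 (BNIP3, ENSG00000176171.11), while NDRG1 (ENSG00000104419.14) and BNIP3L (ENSG00000104765.15) lie on chromosome 8. The annotation places the EGLN1, ADM and CA12 windows inside exons of the same genes, since its transcripts start further upstream. It also places 72 of the 250 bases of the CA9 window in an exon of CA9, and the printed CA9 stretch lies wholly within them.

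Of the 10 genes, 4 rose after si-MYLK-AS1 (EGLN1, EGLN3, CA9 and BNIP3, between 1.68-fold and 2.67-fold), 0 fell and 6 did not pass (HIF1A, VEGFA, ADM, CA12, NDRG1 and BNIP3L). Over all tested genes 42.0% passed in either direction, 21.3% higher and 20.7% lower, so that the share of the 10 genes that passed, 40%, was near that of the background. The groups did not overlap for 4 of the 10 genes, against 52.2% of tested genes. The median log2 fold change was 0.18 for the 10 genes and 0.00 for all tested genes. DESeq2 and limma-voom also counted 4 higher and 0 lower.

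HIF1A, the oxygen-regulated subunit itself, did not pass the test. It stood at 273, 310 and 290 CPM in si-MYLK-AS1 replicates 1 to 3, against 304, 276 and 238 CPM in si-NC replicates 1 to 3. The groups overlapped, with si-NC replicate 3 the lowest of the 6 libraries. The log2 fold change was 0.10 (SE 0.10, 95% interval -0.11 to 0.30, adjusted p = 0.467). An increase above 0.30 or a decrease beyond -0.11 on the log2 scale lay outside the interval. The antisense gene HIF1A-AS1, which shares 117 exon bases with HIF1A, had no read in any library.

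EGLN1, also called PHD2, the main hydroxylase that marks HIF alpha subunits in normal oxygen, rose. Its level was 216, 243 and 251 CPM in si-MYLK-AS1 replicates 1 to 3, against 107, 105 and 98.3 CPM in si-NC replicates 1 to 3. Every si-MYLK-AS1 library was above every si-NC library, and the means were 236 ± 18.3 CPM in si-MYLK-AS1 and 103 ± 4.48 CPM in si-NC (SD, n = 3 each). The log2 fold change of 1.19 (SE 0.09, adjusted p = 3.21e-08) was a 2.29-fold difference, and 2.92% of tested genes had a larger increase. The copy EGLN1P1, named after its values were seen, had 180, 158 and 117 reads in si-MYLK-AS1 replicates 1 to 3 and 142, 181 and 172 reads in si-NC replicates 1 to 3. With its reads added to EGLN1, an alternative chosen after seeing the data, the log2 fold change was 1.08.

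EGLN3, the sensor also called PHD3 and known as a HIF target with strong induction, rose as well but by less. It had 118, 111 and 105 CPM in si-MYLK-AS1 replicates 1 to 3, against 65.5, 61.1 and 70.5 CPM in si-NC replicates 1 to 3. The groups did not overlap, and the log2 fold change was 0.76 (SE 0.10, adjusted p = 1.07e-05), or 1.70-fold. EGLN2, or PHD1, the remaining sensor of the family, was named after its value was seen and fell. Its level was 56.5, 40.0 and 49.4 CPM in si-MYLK-AS1 replicates 1 to 3, against 73.6, 78.1 and 94.6 CPM in si-NC replicates 1 to 3, again without overlap (log2 fold change -0.75, SE 0.13, adjusted p = 0.000182). Of the 3 sensors, EGLN1 and EGLN3 were higher and EGLN2 was lower.

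**Figure D1:**
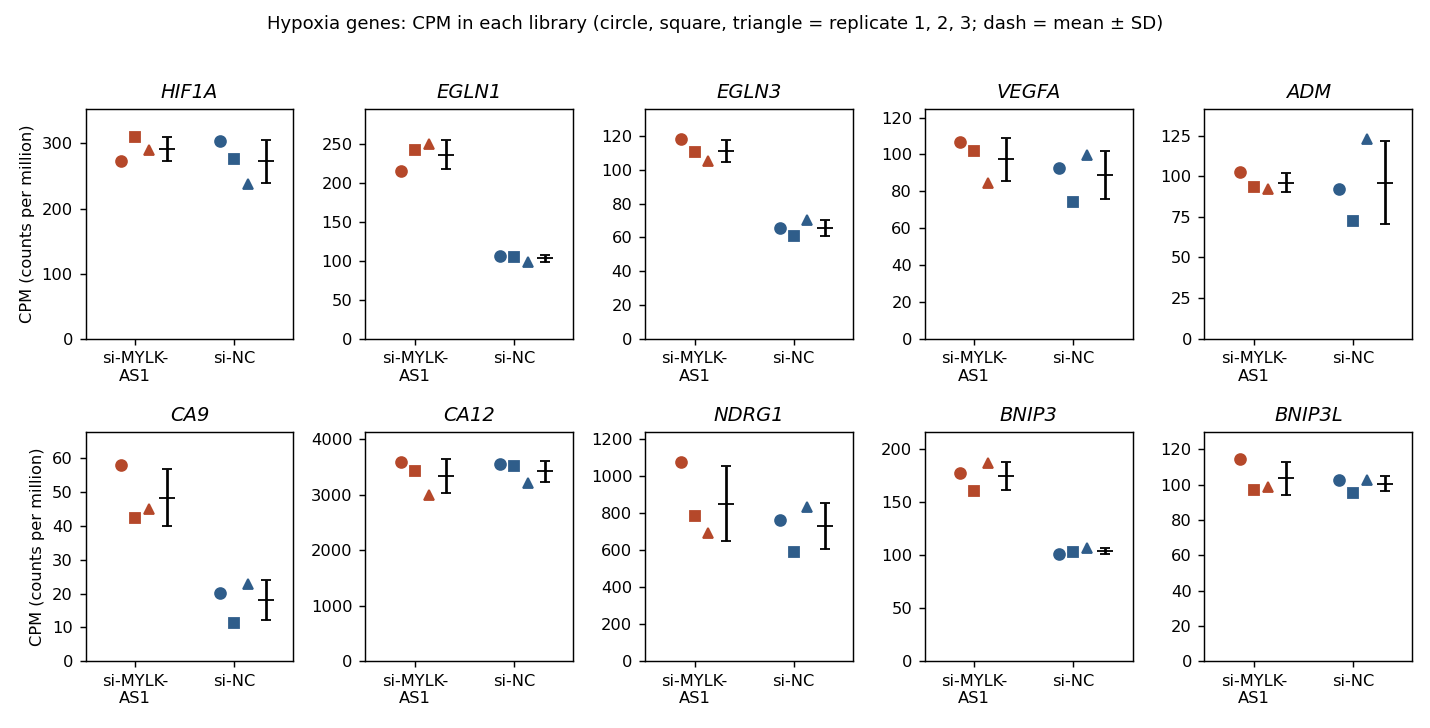
CPM of each of the 10 genes (vertical axes, linear, from 0) in the 3 si-MYLK-AS1 libraries (red, left) and the 3 si-NC libraries (blue, right). Circles, squares and triangles are replicates 1, 2 and 3, and the dash with bars is the mean ± SD. The groups are separate for EGLN1, EGLN3, CA9 and BNIP3 and overlap for the other 6 genes.

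The secreted products VEGFA and ADM did not pass the test. VEGFA, the growth factor that draws blood vessels, stood at 106, 102 and 84.2 CPM in si-MYLK-AS1 replicates 1 to 3, against 92.9, 74.2 and 99.5 CPM in si-NC replicates 1 to 3. Replicates 1 and 2 of si-MYLK-AS1 were above all si-NC libraries, but replicate 3 was below si-NC replicates 1 and 3, so the groups overlapped. Its log2 fold change was 0.14 (SE 0.12, 95% interval -0.11 to 0.39, adjusted p = 0.385). ADM, the vasodilator peptide adrenomedullin, had 103, 93.6 and 92.1 CPM in si-MYLK-AS1 replicates 1 to 3, against 92.3, 72.4 and 123 CPM in si-NC replicates 1 to 3. The si-NC libraries held both the highest and the lowest value. The log2 fold change of ADM was 0.00 (SE 0.15, 95% interval -0.32 to 0.33, adjusted p = 0.992), and its sign changed with the scaling.

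Carbonic anhydrases turn carbon dioxide into bicarbonate and protons, and CA9 and CA12 do so at the cell surface, where they shift the pH. CA9, the form most tied to hypoxia, rose, with 57.9, 42.1 and 44.9 CPM in si-MYLK-AS1 replicates 1 to 3, against 20.1, 11.4 and 22.9 CPM in si-NC replicates 1 to 3. The lowest si-MYLK-AS1 library was above the highest si-NC library. The log2 fold change was 1.42 (SE 0.22, adjusted p = 0.000309), a 2.67-fold difference and the largest of the 10 genes, with 1.56% of tested genes increased by more. CA12 did not pass. It had 3594, 3430 and 3001 CPM in si-MYLK-AS1 replicates 1 to 3, against 3554, 3519 and 3212 CPM in si-NC replicates 1 to 3, at log2 -0.04 (SE 0.09, 95% interval -0.24 to 0.16, adjusted p = 0.783). Replicate 3 was the lowest for CA12 in both groups.

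NDRG1, a stress-responsive protein named for repression by N-myc and commonly used as a hypoxia marker, was abundant and variable. It had 1078, 783 and 693 CPM in si-MYLK-AS1 replicates 1 to 3, against 761, 593 and 836 CPM in si-NC replicates 1 to 3. Only si-MYLK-AS1 replicate 1 lay above all si-NC libraries. The log2 fold change was 0.22 (SE 0.17, 95% interval -0.17 to 0.61, adjusted p = 0.342), and without si-MYLK-AS1 replicate 1 it was 0.02.

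BNIP3 and BNIP3L (also called NIX) are related proteins of the outer mitochondrial membrane that tether mitochondria to the autophagy machinery. BNIP3 rose, with 177, 160 and 186 CPM in si-MYLK-AS1 replicates 1 to 3, against 101, 103 and 107 CPM in si-NC replicates 1 to 3. The groups were far apart relative to their spread, and the log2 fold change was 0.75 (SE 0.09, adjusted p = 6.05e-06), or 1.68-fold. The copy BNIP3P1, named after its values were seen, had 28.8% as many reads as BNIP3 over all libraries, and with its reads added the log2 fold change of BNIP3 was 0.69, so reads that may be split between them leave the value uncertain to that extent. BNIP3L had 114, 97.2 and 98.7 CPM in si-MYLK-AS1 replicates 1 to 3, against 103, 95.4 and 103 CPM in si-NC replicates 1 to 3. Its groups overlapped, and the log2 fold change was 0.05 (SE 0.10, 95% interval -0.16 to 0.25, adjusted p = 0.740).

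**Figure D2:**
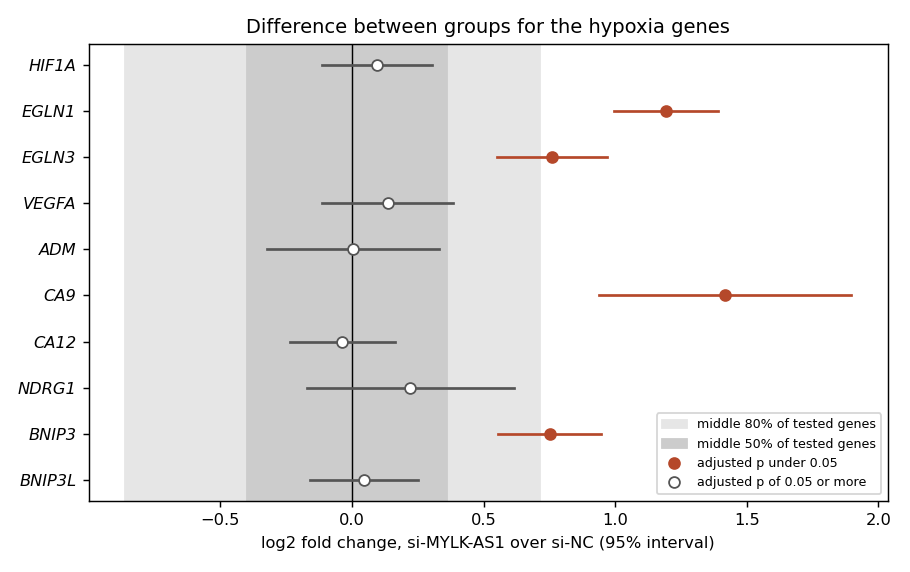
Log2 fold change of si-MYLK-AS1 over si-NC for the 10 genes (points) with approximate 95% intervals (lines). Filled points passed the adjusted p of 0.05. Dark and light grey bands hold the middle 50% of all tested genes (-0.40 to 0.36) and the middle 80% (-0.86 to 0.72). EGLN1, EGLN3, CA9 and BNIP3 lie to the right of both bands, and the other 6 lie inside the dark band.

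Closely related genes moved unequally within the same libraries, a comparison in which the scaling between libraries cancels. Reads of EGLN3 per read of EGLN1 were 0.548, 0.456 and 0.419 in si-MYLK-AS1 replicates 1 to 3, against 0.614, 0.582 and 0.717 in si-NC replicates 1 to 3. The log2 ratio was -1.09 ± 0.20 in si-MYLK-AS1 and -0.66 ± 0.16 in si-NC (SD, n = 3 each), a difference of -0.43. Reads of BNIP3L per read of BNIP3 were 0.646, 0.606 and 0.531 in si-MYLK-AS1 replicates 1 to 3, against 1.02, 0.924 and 0.960 in si-NC replicates 1 to 3, a log2 difference of -0.71. In reads, not scaled for exon length, the pair was near parity in every si-NC library and below it in every si-MYLK-AS1 library. Per kilobase of exon, the si-NC mean was 36.2 CPM for BNIP3 and 25.8 CPM for BNIP3L. The ratio was not repeated with the reads of the copy BNIP3P1 added. CA12 had 62.0, 81.3 and 66.7 reads per read of CA9 in si-MYLK-AS1 replicates 1 to 3, against 176, 308 and 140 in si-NC replicates 1 to 3, a log2 difference of -1.50. As counted, without the reads of copies, the ratios of the groups did not overlap in any of the 3 pairs. A two-sided exact permutation test on these ratios gave p = 0.1 for each pair, the smallest that 3 against 3 libraries allow. It stayed at 0.1 after Benjamini-Hochberg adjustment over the 3 pairs. The copy EGLN1P1 had 180 reads beside 2363 of EGLN1 in si-MYLK-AS1 replicate 1, and 181 beside 1090 in si-NC replicate 2. With the reads of EGLN1P1 added to EGLN1, the groups would overlap for EGLN3 over EGLN1.

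**Figure D3:**
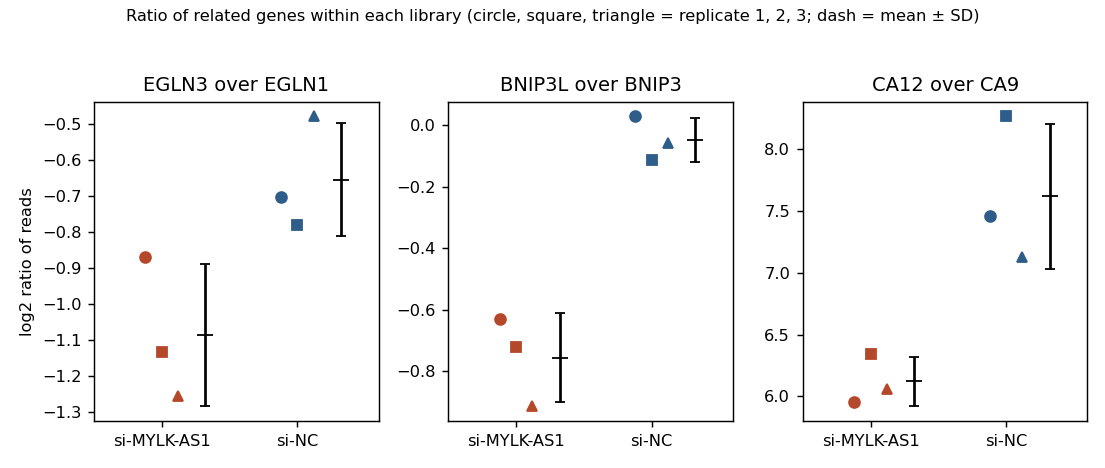
Log2 ratio of reads within each library (vertical axes) for EGLN3 over EGLN1, BNIP3L over BNIP3 and CA12 over CA9, in si-MYLK-AS1 (red, left) and si-NC (blue, right). Circles, squares and triangles are replicates 1, 2 and 3, and the dash with bars is the mean ± SD. The si-MYLK-AS1 libraries are below the si-NC libraries in all 3 panels.

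Levels of different genes were compared as CPM per kilobase of exon, with exons from GENCODE 29. CA12 led in both groups, at 521 ± 47.7 CPM per kilobase in si-MYLK-AS1 and 535 ± 29.3 in si-NC (SD, n = 3 each). NDRG1 came next, at 226 ± 53.6 in si-MYLK-AS1 and 194 ± 33.1 in si-NC, and HIF1A after it, at 68.4 ± 4.37 in si-MYLK-AS1 and 64.0 ± 7.80 in si-NC. BNIP3 followed HIF1A in both groups. Its range overlapped that of HIF1A in si-MYLK-AS1 libraries (61.0 ± 4.58 CPM per kilobase), and that of ADM in si-NC libraries (36.2 ± 1.10). Below it in si-MYLK-AS1 the order was ADM (35.4), EGLN1 (33.3), CA9 (29.9), BNIP3L (26.6), VEGFA (25.9) and EGLN3 (22.8), and neighbours in this order overlapped throughout. In si-NC the order below BNIP3 was ADM (35.3), BNIP3L (25.8), VEGFA (23.6), EGLN1 (14.6), EGLN3 (13.5) and CA9 (11.2). There BNIP3L overlapped VEGFA, EGLN1 overlapped EGLN3 and EGLN3 overlapped CA9, while ADM and BNIP3L, and VEGFA and EGLN1, did not overlap.

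Libraries of the same group differed in several of these genes. In si-NC the coefficient of variation (SD as a percent of the mean) was 33.2% for CA9 and 26.7% for ADM, where the median of the 9491 genes averaging 10 CPM or more was 8.79%, and 0.748% and 2.17% of those genes varied more. NDRG1 and VEGFA had 17.1% and 14.8% in si-NC. For BNIP3, BNIP3L and EGLN1 it was 3.03%, 4.23% and 4.33% there, below the median. In si-MYLK-AS1 libraries NDRG1 had 23.7% and CA9 17.4%, against a median of 9.32%.

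Within si-MYLK-AS1, replicate 1 was the highest library for 7 of the 10 genes, EGLN3, VEGFA, ADM, CA9, CA12, NDRG1 and BNIP3L, and over all tested genes for 32.5%. Within si-NC, replicate 2 was the lowest library for 6 of the 10, EGLN3, VEGFA, ADM, CA9, NDRG1 and BNIP3L, and over all tested genes for 28.3%. Replicate 3 of si-NC was the highest for 6, the same genes with BNIP3 in place of BNIP3L, and over all tested genes for 39.0%, while HIF1A was lowest in that library. What sets these libraries apart was not tested. Each of EGLN1, EGLN3, CA9 and BNIP3 kept its call when any 1 library was left out, and the log2 fold change of CA9 then ran from 1.17 without si-NC replicate 2 to 1.63 without si-NC replicate 3.

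**Figure D4:**
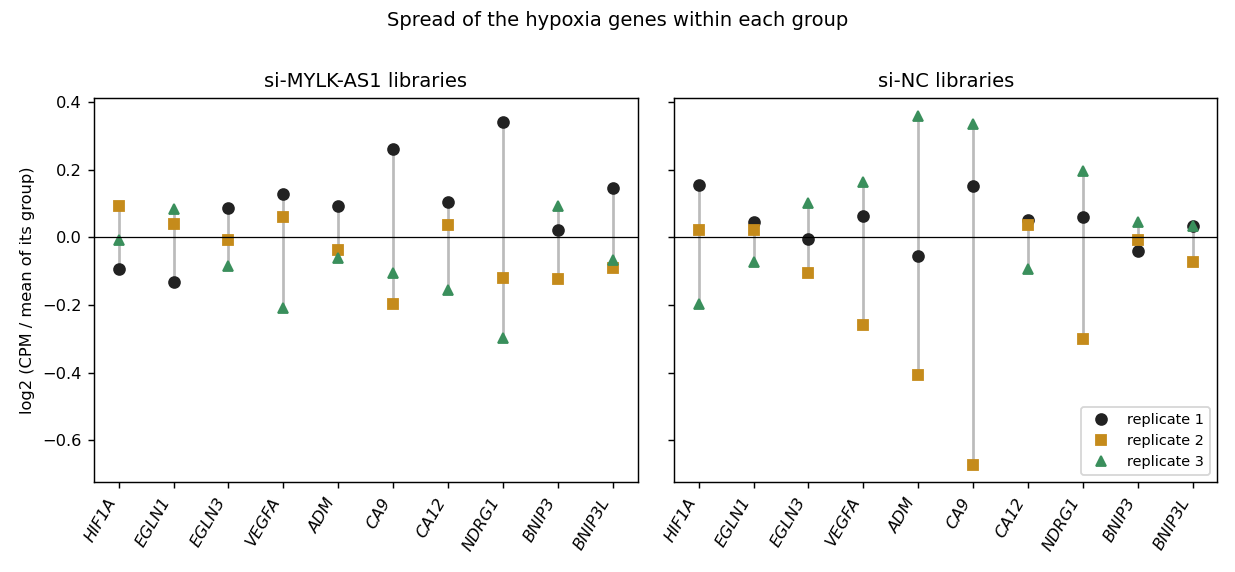
Log2 of CPM over the mean of the library's own group (vertical axis) for the 10 genes, in si-MYLK-AS1 libraries (left) and si-NC libraries (right). Black circles, ochre squares and green triangles are replicates 1, 2 and 3, and grey lines join the 3. CA9, ADM and NDRG1 spread most in si-NC, with replicate 2 lowest, and NDRG1 and CA9 spread most in si-MYLK-AS1, with replicate 1 highest.

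Among HIF subunits and partners other than HIF1A, 1 of 5 tested rose and 0 fell, or 20% beside the 42.0% of all tested genes. EPAS1, which codes for the related subunit HIF2 alpha, rose, with 275, 265 and 202 CPM in si-MYLK-AS1 replicates 1 to 3, against 200, 195 and 156 CPM in si-NC replicates 1 to 3 (log2 fold change 0.43, SE 0.12, adjusted p = 0.00793). Replicate 3 was the lowest library of both groups, and the groups were narrowly apart. The shared partner ARNT had a log2 fold change of 0.17 (adjusted p = 0.362) and ARNT2 one of -0.27 (adjusted p = 0.245). The coactivators EP300 and CREBBP had 0.28 (adjusted p = 0.615) and 0.03 (adjusted p = 0.907). HIF3A was listed at 0 reads in all 6 libraries.

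In the machinery that hydroxylates and degrades HIF alpha, beyond EGLN1 and EGLN3, 3 of 11 tested genes rose and 4 fell, or 63.6% beside the 42.0% of all tested genes. RBX1, the RING subunit of the VHL ligase, fell to 24.9 ± 2.59 CPM in si-MYLK-AS1, against 55.0 ± 6.21 CPM in si-NC (SD, n = 3 each), at log2 -1.15 with SE 0.13 (adjusted p = 2.22e-06). VHL, the subunit that recognises the hydroxylated protein, had 73.6 ± 3.83 CPM in si-MYLK-AS1 and 60.4 ± 5.78 CPM in si-NC. Its log2 fold change was 0.28 (adjusted p = 0.0420), a call lost in 10 of 16 alternatives, among them other scaling factors and leaving out si-NC replicate 1 (adjusted p = 0.207). The asparagine hydroxylase HIF1AN, which blocks coactivator binding, had 0.12 (adjusted p = 0.449), and the ligase adaptor ELOB had 0.22 (adjusted p = 0.236), which passed without si-NC replicate 3 (log2 fold change 0.45, adjusted p = 0.000407). OS9, reported to bring EGLN enzymes and HIF1A together, fell slightly (log2 fold change -0.27, adjusted p = 0.0205), a call lost without si-NC replicate 2 (adjusted p = 0.0512) and without si-MYLK-AS1 replicate 2 (adjusted p = 0.134).

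Of 38 other tested HIF targets outside glycolysis, out of 42 listed, 14 rose and 9 fell, or 60.5% in either direction, beside 42.0% of all tested genes, with a median log2 fold change of 0.20. The collagen-modifying hydroxylases P4HA1 (log2 fold change 1.15, SE 0.09) and PLOD2 (1.31, SE 0.09) rose. PLOD2 had 402, 399 and 451 CPM in si-MYLK-AS1 replicates 1 to 3, against 181, 159 and 166 CPM in si-NC replicates 1 to 3, without overlap. The transferrin receptor TFRC, which imports iron, rose to 457 ± 35.4 CPM in si-MYLK-AS1, against 163 ± 22.3 CPM in si-NC (1.48, SE 0.11, adjusted p = 1.24e-08). The growth factor carrier IGFBP3 (0.76, SE 0.11) and the secreted glycoprotein STC2 (1.57, SE 0.10) rose too. At low levels TMEM45A rose to 6.00 ± 1.03 CPM in si-MYLK-AS1, against 1.52 ± 0.16 CPM in si-NC. AK4, an adenylate kinase of mitochondria, had 1.65 ± 0.27 CPM in si-MYLK-AS1 and 0.677 ± 0.294 CPM in si-NC, a call (adjusted p = 0.0331) lost in 7 of 15 alternatives, among them DESeq2 (adjusted p = 0.127) and 4 of the 6 that left out a library.

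Other targets fell. HILPDA, a lipid droplet protein that is a sensitive HIF target, had 68.8, 61.1 and 51.6 CPM in si-MYLK-AS1 replicates 1 to 3, against 197, 179 and 185 CPM in si-NC replicates 1 to 3. All si-MYLK-AS1 libraries were far below the si-NC libraries, at log2 -1.62 (SE 0.11, adjusted p = 5.77e-09). DDIT4, an inhibitor of mTORC1 signalling also known as REDD1, fell to 371 ± 14.8 CPM in si-MYLK-AS1, against 566 ± 117 CPM in si-NC (-0.61, SE 0.12, adjusted p = 0.000584). The transcriptional repressor BHLHE40 fell (-0.72, SE 0.09, adjusted p = 1.06e-05), as did the ribonuclease RNASE4 (-1.39, SE 0.14, adjusted p = 7.70e-07). ANKRD37 fell at a low level, to 1.99 ± 1.95 CPM in si-MYLK-AS1, against 7.03 ± 1.99 CPM in si-NC (log2 fold change -1.92, adjusted p = 0.0137). Replicate 3 of si-MYLK-AS1 had 4.23 CPM and the other two 1.00 and 0.734 CPM, and the log2 fold change was -2.97 without replicate 3 and -1.52 without replicate 2. Of 19 tested glycolytic HIF targets 11 rose and 0 fell, where 21.3% of all tested genes were higher and 20.7% lower, with a median log2 fold change of 0.30. Among them ALDOA (0.71), PGAM1 (1.07), GAPDH (0.38), PKM (0.35) and ENO1 (0.27) rose, the call of ENO1 (adjusted p = 0.0274) being lost without si-MYLK-AS1 replicate 3, si-NC replicate 1 or si-NC replicate 2 (adjusted p up to 0.117).

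**Figure D5:**
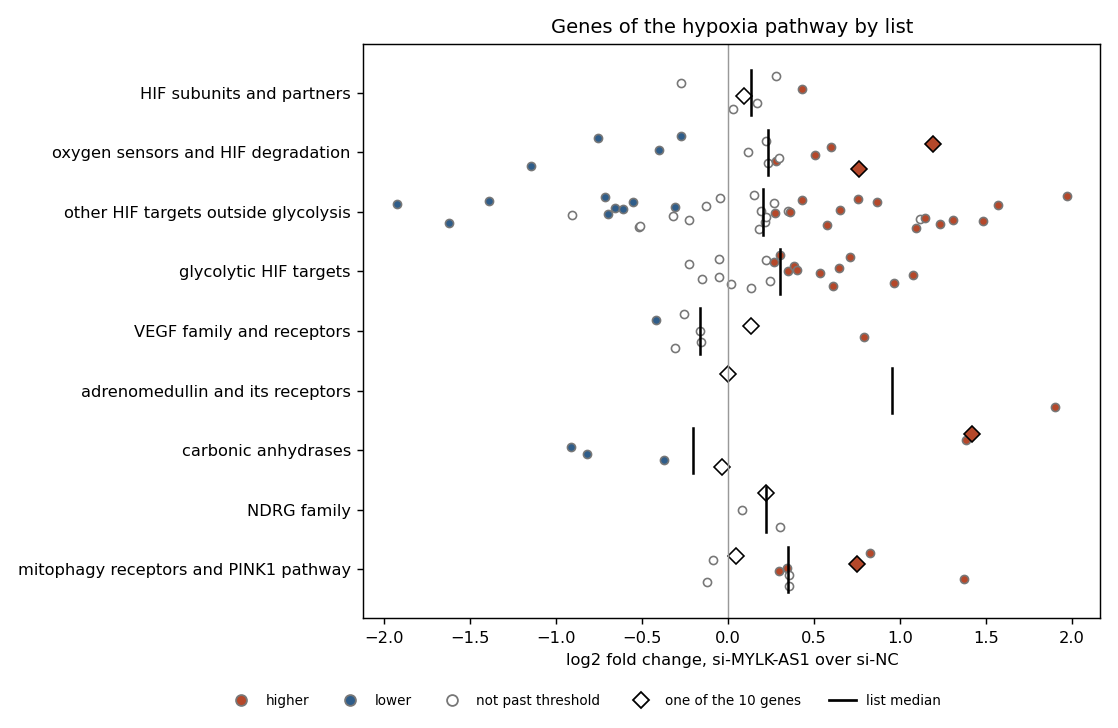
Log2 fold change of si-MYLK-AS1 over si-NC (horizontal axis) for every tested gene of 9 pathway lists (rows), with the 10 genes as diamonds and others as circles, spread vertically for visibility. Red passed the threshold as higher, blue as lower, and white did not pass, and the black bar is the list median. Targets outside glycolysis reach from -1.92 (ANKRD37) to 1.97 (TMEM45A), while glycolytic targets hold no blue point.

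In the families of the other genes, changes were also mixed. Of 6 tested relatives and receptors of VEGFA, 1 rose and 1 fell, or 33.3% beside the 42.0% of all tested genes. The lymphatic growth factor VEGFC rose to 30.3 ± 1.91 CPM in si-MYLK-AS1, against 17.6 ± 1.15 CPM in si-NC (SD, n = 3 each), at log2 0.79 with SE 0.13 (adjusted p = 0.000147). The coreceptor NRP2 fell (-0.42, SE 0.09, adjusted p = 0.00178). NRP1 (-0.16, adjusted p = 0.184) and VEGFB (-0.31, adjusted p = 0.0704) did not pass. NRP1 passed when si-NC replicate 3 was left out (adjusted p = 0.0256), and VEGFB passed in 3 of 16 alternatives (adjusted p down to 0.0441). Of the adrenomedullin receptor genes, CALCRL was tested and rose to 5.91 ± 1.27 CPM in si-MYLK-AS1, against 1.56 ± 0.44 CPM in si-NC (1.90, SE 0.31, adjusted p = 8.50e-05). Its partners RAMP1, RAMP2 and RAMP3 and the related peptide ADM2 were below the filter, RAMP1 with no read and RAMP2 with at most 7 reads a library.

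Of 4 tested carbonic anhydrases other than CA9 and CA12, CA2 rose and CA8, CA11 and CA5B fell, or 100% beside the 42.0% of all tested genes. The cytosolic CA2 had 6.53 ± 0.23 CPM in si-MYLK-AS1 and 2.51 ± 0.80 CPM in si-NC (log2 fold change 1.39, SE 0.27, adjusted p = 0.000485). CA11, which lacks enzyme activity, had 19.0 ± 2.28 CPM in si-MYLK-AS1 and 35.9 ± 2.08 CPM in si-NC (-0.91, SE 0.13, adjusted p = 3.61e-05). CA8 (-0.37, adjusted p = 0.0228) lost its call without si-MYLK-AS1 replicate 1 or 2 or si-NC replicate 1 or 2 (adjusted p up to 0.0965). The mitochondrial CA5B (-0.82, adjusted p = 0.0287) lost it without si-MYLK-AS1 replicate 3 or si-NC replicate 1 or 2 (adjusted p up to 0.0868) and with DESeq2 (adjusted p = 0.0592). Neither tested relative of NDRG1 passed, NDRG2 with 0.30 (adjusted p = 0.148) and NDRG3 with 0.08 (adjusted p = 0.558). NDRG4 had 22, 17 and 5 reads in si-MYLK-AS1 replicates 1 to 3 and 4, 8 and 4 reads in si-NC replicates 1 to 3, below the filter.

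Beside BNIP3 and BNIP3L, 4 of 8 tested genes of mitophagy rose and 0 fell, a share of 50% that is near the 42.0% of all tested genes. The cargo receptor SQSTM1, or p62, which links ubiquitin to autophagy, rose to 3716 ± 215 CPM in si-MYLK-AS1, against 1433 ± 169 CPM in si-NC (SD, n = 3 each), at log2 1.37 with SE 0.10 (adjusted p = 1.42e-08). The receptor TAX1BP1 rose by less (0.30, SE 0.09, adjusted p = 0.0101). FKBP8 (-0.12, adjusted p = 0.413) and the prohibitin PHB2 (-0.08, adjusted p = 0.519) did not pass.

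Likeness to a gene over the 6 libraries was taken as the root mean square difference of mean-centred log2 CPM. The candidates were 9385 genes averaging at least 10 CPM, with clone-name and LOC symbols left out. Closest to HIF1A were KDM5B (0.028), SARM1 (0.040) and ITSN2 (0.041). Closest to EGLN1 were SFRP1 (0.033), PIGH (0.046) and DCUN1D1 (0.048). With 6 libraries in 2 groups, many genes share such a profile. SFRP1, a secreted inhibitor of Wnt signalling, had 127, 140 and 144 CPM in si-MYLK-AS1 replicates 1 to 3, against 63.8, 59.1 and 55.0 CPM in si-NC replicates 1 to 3, again without overlap of the groups.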

How the data were processed

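RNA of PC9/GR cells was extracted with Trizol and made into Ion Proton libraries, per the labels' protocols. Per the submitters' processing notes the build was GRCh38, and the authors deposited raw counts of reads per gene symbol. None of the sources used here gives the aligner, the counting tool, its strand setting or the annotation, and overlapping or near-identical genes may share counts. From these counts, edgeR 4.0.16 (R 4.3.3) was run with filterByExpr, TMM factors and a robust quasi-likelihood F test (two-sided), with Benjamini-Hochberg adjustment over 15391 genes and a threshold of 0.05. SEs are the log2 fold change over the root of F, an approximation that also underlies the 95% intervals. Ratios used 0.5 added to each count, and likeness used 0.5 added to CPM. Alternatives included DESeq2 1.42.0 and limma-voom (limma 3.58.1). The test was checked on simulated data, in which a far smaller share of genes was changed than passed here. Most large changes were recovered there, small ones often were not, and false calls were somewhat more frequent than the threshold allows. These rates depend on the share of changed genes and need not hold for the real data. Calls close to the threshold may be less firm than their adjusted p says. The labels give no sequencing batch.

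The 10 genes and the pathway lists were chosen with earlier results of these data known. From each list the text names every gene if 6 or fewer, otherwise the 4 with the highest mean CPM and those past the threshold with an absolute log2 fold change of at least 1. A gene that this rule names is not reported here. All 130 listed symbols were matched to the table, some by an older symbol (TCEB2 for ELOB). Exon lengths and gene overlaps came from GENCODE 29 and promoter windows from RefSeq. Intervals and floors cover counting error or the spread between these libraries only.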

Additional observations from a re-analysis of the deposited data

How the results depend on the processing

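Of the 10 genes, 4 were higher and 0 lower with edgeR's 3 other scalings, 2 other filters, DESeq2, limma-voom, a threshold of 0.01 and any 1 library left out. With an absolute log2 fold change of at least 1 also asked for, 2 of the 10 were higher (EGLN1 and CA9), and over all genes 646 were higher and 1131 lower, since fewer genes reach that size. Leaving out 1 library gave 2646 to 3176 genes higher and 2527 to 2971 lower, with fewer samples in the fit. Log2 fold changes that changed sign did not pass, and those on all libraries ran from -0.12 for FKBP8 to 0.28 for EP300. ADM was -0.023 with upper quartile factors, -0.024 without factors, -0.030 with a filter of 5 CPM and -0.17 to 0.22 with a library left out. CREBBP was -0.0026 with the filter of 5 CPM. With a library left out the ranges were -0.15 to 0.18 for CREBBP, -0.087 to 0.042 for CA12, -0.029 to 0.093 for BNIP3L, -0.015 to 0.51 for EP300, -0.20 to 0.027 for FKBP8, -0.020 to 0.19 for HIF1AN and -0.14 to 0.013 for PHB2. The cause was not tested. The log2 ratio difference with a library left out was -0.54 to -0.34 for EGLN3 over EGLN1, -0.77 to -0.63 for BNIP3L over BNIP3 and -1.74 to -1.17 for CA12 over CA9. With the replicate block 3321 genes were higher and 3200 lower, 4 and 0 of the 10, and the ratio differences stayed at -0.43, -0.71 and -1.50 (two-sided exact sign-flip p = 0.25 each, the smallest 3 pairs allow). Same-numbered libraries had correlations of -0.052, 0.0778 and 0.0636 in their deviations from the group means. Replicates 2 and 3 of si-MYLK-AS1 correlated best with their own number, and replicate 1 did not. Since the correlations were this small, the numbers were not taken to pair the libraries. Read depth limits genes of a few reads a library, MYLK-AS1 and AK4 among them.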

Other observations

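Some genes of the pathway lists that most cells are known to use were listed at or near 0, and were named after their values were seen. HK1, a hexokinase, had 0 reads in all 6 libraries, and PINK1, the kinase that starts a branch of mitophagy, had 3 reads in all. A 0 in this table therefore says only that a gene is listed at 0.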
